A study of Homo sapiens with 8 samples.

Results

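The genes of glycolysis and of the hypoxia response were examined in DLD1 cells, an established human colorectal cancer cell line. The set held 39 genes of the 36337 gene names on the arrays, chosen by name from these pathways, and all of their 54 probes among the 50599 probes that were not controls. It comprised 4 transporters of glucose or lactate, 16 core enzymes of glycolysis, 6 kinases that regulate glycolysis or the mitochondrial use of pyruvate, 4 genes of the hypoxia-inducible factor (HIF) system, and 9 HIF targets outside glycolysis. RNA was measured on 8 single-colour arrays in 4 groups of 2. All cells received an siRNA for 48 h, either a control siRNA (siCONT) or an siRNA against UHRF1, and then the HDAC inhibitor trichostatin A (TSA, 300 nM) or ethanol as mock for another 24 h. UHRF1 is the protein that guides the maintenance DNA methyltransferase to replicating DNA. In each depleted group the first array carried siUHRF1-1 and the second siUHRF1-2, so n = 2 siRNAs. All results came from a single cell line.

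Glycolysis turns glucose into pyruvate in the cytosol and yields a small amount of ATP without oxygen. Lactate dehydrogenase then turns pyruvate into lactate, which monocarboxylate transporters carry out of the cell. The pyruvate dehydrogenase kinases (PDK) inhibit pyruvate dehydrogenase and so limit the use of pyruvate in mitochondria. The transcription factors HIF1A and EPAS1 (HIF-2 alpha) are marked for destruction by prolyl hydroxylases when oxygen is present. When they are stable they bind the hypoxia response element, whose core is ACGTG or GCGTG, and raise transcription of many glycolytic enzymes together with genes of angiogenesis, pH control and collagen modification. Colorectal cancer cells are known for high glycolysis also in the presence of oxygen.

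A level is the log2 processed intensity minus the log2 of the 75th percentile of the same array, so that 0 is that percentile and 1 unit is 2-fold. Levels of different probes are not compared. A gene was called changed at an adjusted p under 0.05 in limma and a change of at least 2-fold, and the words rose and fell are kept for such calls. The change is given with its standard error (SE). Each array had from 21927 to 24294 probes well above background, and over all tested probes each comparison had a median between −0.14 and 0.06. The spread between the siCONT arrays of an agent was close to that of a probe's spots within an array, and no source says whether they came from separate cultures, so p-values may in part measure technical spread. The fit shares 1 estimate of spread over the 4 groups, so the SE of TSA in siCONT also holds the difference between the siRNAs. Between the 2 arrays of a group, the log2 difference over members had a standard deviation of 0.062 in siCONT with mock and 0.087 with TSA. In depleted cells it was 0.64 with mock and 0.57 with TSA. The siCONT arrays of an agent count as 1 sample in means, and a fit with them averaged to 1 sample stands beside the main one. The slide held the mock arrays in its upper row and the TSA arrays in the other, so TSA and slide row cannot be told apart. UHRF1 fell with its siRNAs by 1.83 ± 0.22 under mock (adjusted p 0.0120; 0.252 with siCONT as 1 sample) and by 2.87 ± 0.22 under TSA (0.00234; 0.0535). All 10 colon epithelial markers (EPCAM, KRT8 and others) were above background on every array. Of 7 markers of other cells, PTPRC, CD3E, PECAM1 and COL3A1 were above background on no array, and the summed linear level of the 7 was 1.34 to 1.5 in siCONT with mock, 1.29 to 1.52 in depleted cells with mock, 2.25 on either siCONT array with TSA and 5.10 to 5.63 in depleted cells with TSA. Of VWF, COL1A1 and DES, 2 of 3 rose with TSA in siCONT, against 10.4% of all tested probes. In the combined treatment and with TSA in depleted cells 3 of 3 rose, against 14.5% and 11.7%. With depletion 1 of 2 tested rose under mock and 1 of 3 under TSA, against 3.13% and 5.39%. VWF and COL1A1 were at least 15.0-fold and 6.66-fold higher in the combined treatment. They entered that test only through its depleted group, being dim in siCONT with mock. All arrays came from DLD1 cells, and the part of these markers in the results was not tested.

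TSA in siCONT cells went with lower levels across much of the set. Of 37 tested members, 15 fell and 0 rose, against 8.22% of all tested probes that fell and 10.4% that rose. The genes that fell were SLC2A1, GPI, PFKL, ALDOC, TPI1, LDHA, SLC16A3, PFKFB3, PFKFB4, PDK1, EGLN1, EGLN3, NDRG1, ANKRD37 and BHLHE40. In 32 of the 37 the change was below 0, against 13108 of all 23243 tested probes, and the median was −0.98 against −0.11 over all tested probes. With siCONT averaged to 1 sample, PFKFB4 alone was called, against 1.56% of all tested probes in either direction. The count also depended on the siCONT arrays: it was 4 without the first or 5 without the second siCONT TSA array, and 6 without the first or 4 without the second siCONT mock array. Fewer cells of a type and less RNA per cell cannot be told apart in these measurements.

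UHRF1 depletion under mock gave a single call. PFKFB4 fell, and 0 of 37 tested members rose, against 0.987% of all tested probes that fell and 3.13% that rose. A further 16 members reached an unadjusted p under 0.05 without a call, and 32 of the 37 changes were below 0, with a median of −0.58 against −0.10 over all tested probes. Of all 22396 tested probes, 6866 reached an unadjusted p under 0.05 and 13242 changes were below 0. With siCONT as 1 sample, limma called 0 members (3 at an unadjusted p under 0.05), against 0.0223% of all tested probes, and the methods' t-test called 0. Without the siUHRF1-1 mock array 14 members were called, all lower, against 2.99% of all tested probes called lower in that fit, and without any other array 0.

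The combined treatment, in which depleted cells given TSA were set against siCONT with mock, gave the most calls among the 6 comparisons. SLC2A3 and EPAS1 rose and 16 of 38 tested members fell, against 14.5% of all tested probes that rose and 11.1% that fell. The genes that fell were GPI, PFKL, PGK1, PGAM1, ENO1, LDHA, PFKFB3, PFKFB4, PDK1, EGLN1, EGLN3, VEGFA, NDRG1, KDM3A, ANKRD37 and BHLHE40. The fit with siCONT as 1 sample called 5 members, SLC2A3 higher and PFKL, ENO1, PFKFB4 and BHLHE40 lower, against 15.4% of all tested probes. Without the first siCONT mock array 11 were called, and without the second 10. This comparison shares its siCONT mock arrays with both comparisons above.

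Depletion within TSA-treated cells gave no call among 38 tested members. limma called 0 (9 at an unadjusted p under 0.05; 0 with siCONT as 1 sample, 2 unadjusted), while the methods' t-test called 2 before adjustment and 0 after. Of all tested probes 5.39% rose and 2.87% fell, and 0.692% were called with siCONT as 1 sample. In the main fit 8275 of all 23846 tested probes reached an unadjusted p under 0.05. Without the siUHRF1-1 or the siUHRF1-2 mock array 3 were called, ALDOC and SLC16A3 higher and VEGFA lower. SLC2A3 was called higher without the siUHRF1-2 TSA array.

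TSA in UHRF1-depleted cells changed 5 of 38 tested members. SLC2A3 rose and PFKL, PFKFB4, KDM3A and BHLHE40 fell, against 11.7% of all tested probes that rose and 9.01% that fell. With siCONT as 1 sample, SLC2A3, PFKL and PFKFB4 were called, against 17.6% of all tested probes. Without the siUHRF1-2 mock array 15 were called, against 5483 of all 23913 probes tested in that fit, and without the siUHRF1-1 mock array 3, against 4806 of 23911. With any single siCONT array left out KDM3A was no longer called and the count was 4. With the percentile over probes detected on all arrays 3 rose and 3 fell, with quantile normalization 3 rose and 4 fell, and with median scaling 1 rose and 11 fell.

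The interaction, which subtracts the depletion effect in mock cells from that in TSA-treated cells, was called for 0 members in limma (7 at an unadjusted p under 0.05), where 2.83% of all tested probes were called higher and 2.07% lower. Of all 24591 tested probes, 7045 reached an unadjusted p under 0.05. With siCONT as 1 sample limma called 0 (1 unadjusted), against 0% of all tested probes. Without the siUHRF1-1 mock array 11 members were called, all higher, against 4.12% of all tested probes called higher in that fit, and without the siUHRF1-2 mock array 3. With a replicate block within the siRNA arm SLC2A1, TPI1 and SLC16A3 were called, and SLC16A3 was also called with normexp. The share of the calls over all probes that were higher depended on the scaling. With the percentile taken over probes detected on all arrays in place of all probes, it moved from 55.8% to 66.2% for TSA in siCONT, from 56.8% to 72.0% for the combined treatment, from 65.2% to 75.5% for depletion under TSA and from 56.5% to 68.3% for TSA in depleted cells. With median scaling it was 31.6%, 29.1% and 30.1% in the last 3 of these and moved from 57.8% to 24.2% for the interaction. Median scaling placed the median over all tested probes at −0.54 for the combined treatment, −0.35 for depletion under TSA, −0.43 for TSA in depleted cells and −0.28 for the interaction, and member changes there are relative to these shifts.

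**Figure D1:**
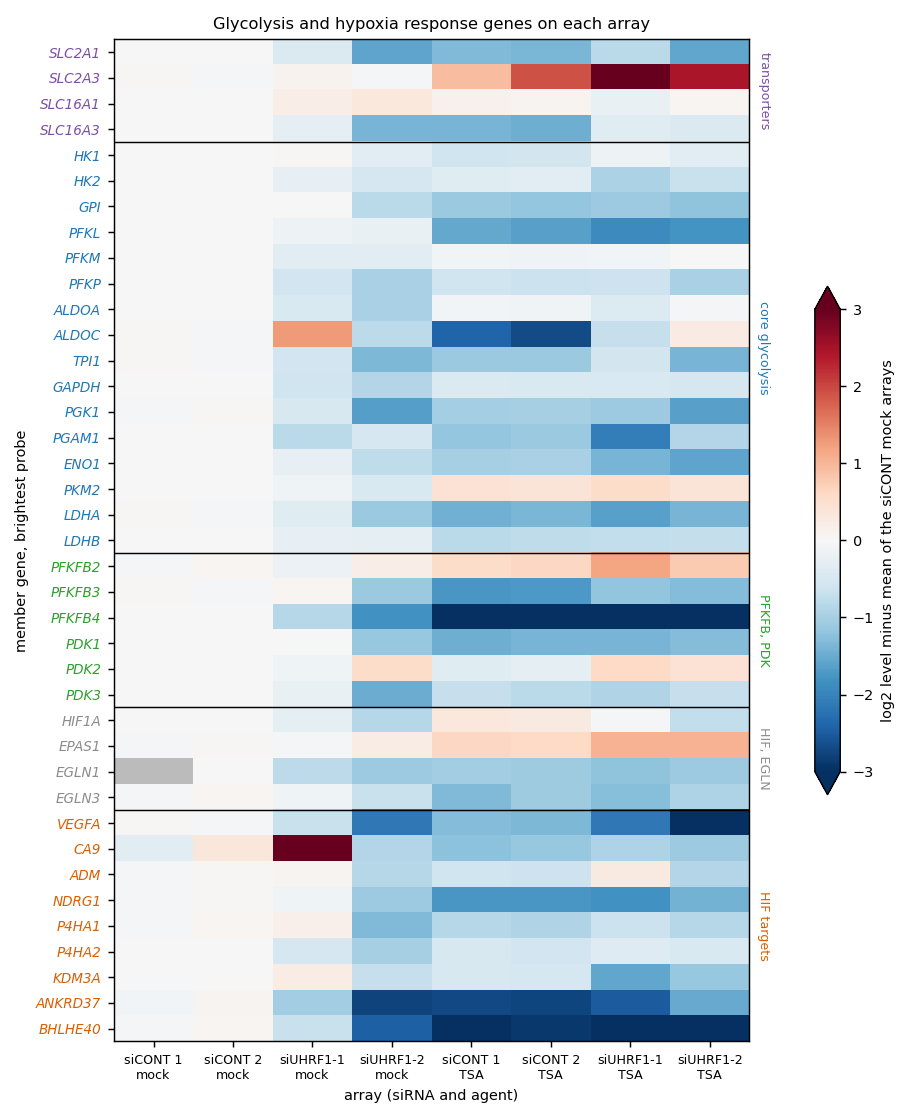
Levels of the member genes (rows, brightest probe of each, grouped by role) on the 8 arrays (columns), as the log2 difference from the siCONT mock mean, with colours capped at 3 in either direction. The siCONT TSA columns are below 0 for most rows, the siUHRF1-2 mock column is lower than the siUHRF1-1 mock column for 31 of 37 tested genes, and EGLN1 has a grey cell where its spot was left out.

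The transporters split by gene. SLC2A1 (GLUT1), the basal glucose transporter and a textbook HIF target, fell with TSA in siCONT cells, and so did SLC16A3 (MCT4), the lactate exporter of glycolytic cells. Levels of SLC2A1 were 5.37 and 5.40 in siCONT with mock, 4.95 and 3.80 in depleted cells with mock, 4.05 and 4.01 in siCONT with TSA, and 4.57 and 3.83 in depleted cells with TSA. The siCONT mock arrays were the highest, and the siUHRF1-2 mock array was the lowest. The change with TSA in siCONT was −1.36 ± 0.40 (adjusted p 0.0394; 0.325 with siCONT as 1 sample) and that of the combined treatment −1.19 ± 0.40 (0.0519, not called). SLC16A3 showed another order. SLC16A3 stood at 6.89 and 6.87 in siCONT with mock, at 5.48 and 5.41 in siCONT with TSA, at 6.60 and 5.49 in depleted cells with mock, and at 6.51 and 6.45 in depleted cells with TSA. The lowest arrays were those of siCONT with TSA and of siUHRF1-2 with mock, and the depleted TSA arrays did not overlap with the siCONT TSA arrays. SLC16A3 changed by −1.44 ± 0.33 with TSA in siCONT (adjusted p 0.0184; 0.244 with siCONT as 1 sample), by −0.40 ± 0.33 with the combined treatment (0.360) and by 1.04 ± 0.33 with depletion under TSA (0.0818). Its interaction was 1.87 ± 0.47 with an adjusted p of 0.0701. For SLC16A1 (MCT1), which moves lactate in either direction, no change was called and the levels of all arrays lay between 1.65 and 2.19.

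SLC2A3 (GLUT3), a high-affinity glucose transporter best known from neurons, rose in the combined treatment and with TSA in depleted cells. With mock, SLC2A3 levels were −5.25 and −5.32 in siCONT and −5.17 and −5.35 in depleted cells, and with TSA −4.35 and −3.36 in siCONT and −1.67 and −2.84 in depleted cells. The probe (chr12:8072924-8072983, hg19, minus strand) was well above background on both depleted TSA arrays and on none of the other 6, where its levels are only bounds. Depleted cells with TSA were at least 2.21-fold higher than siCONT with mock (adjusted p 0.00286; 0.0222 with siCONT as 1 sample), at least 2.54-fold higher than depleted cells with mock (0.00375; 0.0112) and at least 2.50-fold higher than siCONT with TSA (0.0584, not called). These bounds set the mean of the bright arrays against the lowest signals that were well above background on the dim arrays. The probe entered the tests only through the depleted TSA group, where it is bright, so its p-values are no support beyond the bounds. A second SLC2A3 probe was above background on no array, with −3.79 and −4.99 in depleted cells with TSA. The level of the siUHRF1-1 TSA array was above that of the siUHRF1-2 TSA array. After normexp background correction the fitted changes were 0.55 and 0.63 in the 2 called comparisons and under the 2-fold minimum.

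Among the 16 core enzymes, 5 fell with TSA in siCONT, 6 with the combined treatment and 1 with TSA in depleted cells. Of all tested probes 8.22%, 11.1% and 9.01% fell in these comparisons. With depletion under mock, depletion under TSA and for the interaction 0 core enzymes were called. There 3.13%, 5.39% and 2.83% of all tested probes were called higher and 0.987%, 2.87% and 2.07% lower. The median change of the 16 was −0.89 with TSA in siCONT, −0.46 with depletion under mock, −0.80 with the combined treatment, −0.36 with TSA in depleted cells and −0.07 with depletion under TSA, the last of which turned to 0.04 with the percentile over probes detected on all arrays. The core enzymes that fell were spread over the preparatory and the payoff stage of the pathway.

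PFKL, the liver-type subunit of phosphofructokinase at the committed step of glycolysis, fell in each of the 3 comparisons that set TSA arrays against mock arrays. On the siCONT arrays PFKL had levels of 3.48 and 3.46 with mock and 1.94 and 1.84 with TSA, and on the siUHRF1-1 and siUHRF1-2 arrays of 3.32 and 3.25 with mock and 1.55 and 1.68 with TSA. All TSA arrays were below all mock arrays, and the siRNAs gave close levels under either agent. PFKL (chr21:45744490-45744749, hg19, plus strand) fell by 1.58 ± 0.11 with TSA in siCONT (adjusted p 0.000538; 0.0773 with siCONT as 1 sample), by 1.85 ± 0.11 with the combined treatment (0.000176; 0.0144) and by 1.67 ± 0.11 with TSA in depleted cells (0.000290; 0.00881), or 3.18-fold. Its call held in all 8 fits that left out an array, in each of these comparisons. The other phosphofructokinase genes gave smaller values. PFKM, the muscle-type subunit, lay between 4.74 and 5.08 on all arrays with no call, and PFKP, the platelet-type subunit, changed by −0.62 ± 0.18 with TSA in siCONT (0.0395), under 2-fold.

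Of the first enzymes of the pathway, GPI was called and the hexokinases were not. HK1 and HK2, the hexokinases that trap glucose as glucose 6-phosphate, changed by −0.58 ± 0.16 and −0.35 ± 0.15 with TSA in siCONT. HK2 came nearest with −0.81 ± 0.15 in the combined treatment (adjusted p 0.00734, 1.75-fold lower). GPI, which turns glucose 6-phosphate into fructose 6-phosphate, fell. Levels of GPI were 7.75 and 7.77 in siCONT with mock, 7.76 and 6.94 in depleted cells with mock, 6.65 and 6.60 in siCONT with TSA, and 6.67 and 6.54 in depleted cells with TSA. Under mock the siUHRF1-1 array equalled siCONT and the siUHRF1-2 array was lower, and all TSA arrays were lower still. GPI fell by 1.13 ± 0.26 with TSA in siCONT (adjusted p 0.0170; 0.258 with siCONT as 1 sample) and by 1.15 ± 0.26 with the combined treatment (0.0127; 0.118).

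Of the aldolases, which split fructose 1,6-bisphosphate, ALDOC was called and ALDOA was not. ALDOA, the common form, was called nowhere and changed by −0.09 ± 0.21 with TSA in siCONT, a value whose sign turned under 2 of the scalings. ALDOC, the brain-type form, fell with TSA in siCONT. ALDOC stood at 0.37 and 0.28 in siCONT with mock, at −2.07 and −2.36 in siCONT with TSA, at 1.6 and −0.47 in depleted cells with mock, and at −0.36 and 0.57 in depleted cells with TSA. In both depleted groups the siRNAs lay far apart, in opposite order, and siCONT with TSA was below all other arrays. ALDOC changed by −2.54 ± 0.66 with TSA in siCONT (5.81-fold lower, adjusted p 0.0261; 0.254 with siCONT as 1 sample) and by 2.32 ± 0.66 with depletion under TSA (adjusted p 0.0599, not called). TPI1, which interconverts the triose phosphates, changed by −1.12 ± 0.34 with TSA in siCONT (adjusted p 0.0446; 0.352) and by −0.97 ± 0.34 with the combined treatment (0.0598). Its second probe gave −1.03 ± 0.33 there and passed (0.0441).

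In the payoff stage, PGK1, PGAM1 and ENO1 fell with the combined treatment. PGK1, the kinase that makes the first ATP of this stage, fell by 1.36 ± 0.38 (adjusted p 0.0281; 0.159 with siCONT as 1 sample). With mock, PGK1 levels were 7.96 and 8.01 in siCONT and 7.5 and 6.33 in depleted cells, and with TSA 6.96 and 7.0 in siCONT and 6.89 and 6.36 in depleted cells. The siUHRF1-2 arrays were the lowest under either agent. PGAM1, the mutase that follows, fell by 1.48 ± 0.37 (0.0185; 0.125), with −2.08 for siUHRF1-1 and −0.88 for siUHRF1-2. ENO1, the enolase, fell by 1.49 ± 0.19 (0.00155; 0.0410), a call that held with siCONT as 1 sample. On the siCONT arrays ENO1 had levels of 7.31 and 7.35 with mock and 6.34 and 6.35 with TSA, and on the siUHRF1-1 and siUHRF1-2 arrays of 7.08 and 6.56 with mock and 5.93 and 5.76 with TSA. Every TSA array was below every mock array, and the depleted TSA arrays were the lowest. With TSA alone ENO1 changed by −0.98 in siCONT and by −0.98 in depleted cells, 1.98-fold and 1.97-fold lower and just short of the 2-fold minimum.

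The last enzymes were those of pyruvate and lactate. LDHA, the lactate dehydrogenase subunit that favours lactate production, fell. Levels of LDHA were 8.48 and 8.42 in siCONT with mock, 8.08 and 7.33 in depleted cells with mock, 7.01 and 7.08 in siCONT with TSA, and 6.82 and 7.05 in depleted cells with TSA. The TSA arrays were below all mock arrays, and siUHRF1-2 was below siUHRF1-1 under mock. LDHA changed by −1.41 ± 0.25 with TSA in siCONT (adjusted p 0.00721; 0.180 with siCONT as 1 sample) and by −1.51 ± 0.25 with the combined treatment (0.00399; 0.0594). LDHB, the other subunit, changed by −0.79 ± 0.11 with TSA in siCONT (0.00293), under 2-fold. PKM2 (PKM), the pyruvate kinase, was the core enzyme whose change with TSA in siCONT was above 0. PKM2 stood at 7.09 and 7.05 in siCONT with mock, at 7.5 and 7.44 in siCONT with TSA, at 6.94 and 6.61 in depleted cells with mock, and at 7.62 and 7.47 in depleted cells with TSA. The 4 TSA arrays lay above the 4 mock arrays. PKM2 changed by 0.41 ± 0.15 with TSA in siCONT (0.0704) and by 0.77 ± 0.15 in depleted cells (0.00878), 1.70-fold and so not called.

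The kinases that set the pace of glycolysis included PFKFB4, which was called in 4 of the 6 comparisons. PFKFB enzymes make and remove fructose 2,6-bisphosphate, the activator of phosphofructokinase, and PFKFB3 and PFKFB4 are the HIF-responsive forms. With mock, PFKFB4 levels were 3.39 and 3.35 in siCONT and 2.51 and 1.55 in depleted cells, and with TSA −0.35 and −0.43 in siCONT and −0.26 and −0.02 in depleted cells. The 4 groups separated by agent, with the siRNA arrays below siCONT under mock and slightly above it under TSA. PFKFB4 (chr3:48555454-48555513, hg19, minus strand) fell 13.5-fold with TSA in siCONT, by 3.76 ± 0.30 (adjusted p 0.000689; 0.0476 with siCONT as 1 sample). With the combined treatment it fell 11.4-fold (0.000460; 0.0122) and with TSA in depleted cells 4.5-fold (0.00287; 0.0192). These 3 calls held in all 8 fits that left out an array. The fall with depletion under mock, −1.34 ± 0.30 (adjusted p 0.0488; 0.493 with siCONT as 1 sample), held in 1 of the 8, and its interaction of 1.59 ± 0.43 did not pass (0.0792).

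PFKFB3 and PDK1 followed with smaller changes. On the siCONT arrays PFKFB3 had levels of 1.83 and 1.77 with mock and 0.07 and 0.09 with TSA, and on the siUHRF1-1 and siUHRF1-2 arrays of 1.86 and 0.69 with mock and 0.63 and 0.50 with TSA. On this probe siUHRF1-1 with mock equalled siCONT with mock, and the other arrays were below. On the second PFKFB3 probe siUHRF1-1 with mock stood at −0.92, below siCONT with mock at −0.13 and −0.22. PFKFB3 fell by 1.72 ± 0.35 with TSA in siCONT (adjusted p 0.0119; 0.201 with siCONT as 1 sample) and by 1.24 ± 0.35 with the combined treatment (0.0297; 0.168). PDK1, the HIF-responsive kinase that inhibits pyruvate dehydrogenase, fell by 1.43 ± 0.35 (0.0214; 0.259) and 1.34 ± 0.35 (0.0216; 0.140). Levels of PDK1 were 3.15 and 3.15 in siCONT with mock, 3.16 and 2.00 in depleted cells with mock, 1.68 and 1.76 in siCONT with TSA, and 1.76 and 1.85 in depleted cells with TSA. Again siUHRF1-1 with mock was level with siCONT. PFKFB2, the heart-type form, had values above 0 on its brighter probe, with 0.98 ± 0.19 in the combined treatment (0.00743), 1.98-fold and not called. Its second probe went the other way with TSA, from a mean of −2.75 in siCONT with mock to −3.27 in siCONT with TSA. In depleted cells with TSA that probe had a mean of −3.13, with −2.23 for siUHRF1-1 and −4.04 for siUHRF1-2. PDK2 and PDK3 were not called on their brighter probes. A second PDK2 probe rose in the combined treatment by 1.3 ± 0.29 (0.0121), while the brighter probe gave 0.52 ± 0.22 (0.0995), so the PDK2 probes disagree.

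Within the HIF system, EPAS1 rose and both hydroxylases fell in the combined treatment, while HIF1A was not called. HIF1A, the subunit that acts in most cells, had changes from −0.67 with depletion under TSA to 0.28 with TSA in siCONT. HIF1A stood at 1.51 and 1.51 in siCONT with mock, at 1.81 and 1.77 in siCONT with TSA, at 1.21 and 0.64 in depleted cells with mock, and at 1.48 and 0.76 in depleted cells with TSA. The siUHRF1-2 arrays were the lowest under either agent. EPAS1, the other alpha subunit, rose in the combined treatment by 1.05 ± 0.13 (adjusted p 0.00139; 0.0604 with siCONT as 1 sample). With mock, EPAS1 levels were 4.29 and 4.37 in siCONT and 4.30 and 4.55 in depleted cells, and with TSA 4.94 and 4.93 in siCONT and 5.37 and 5.37 in depleted cells. Both siRNAs gave the same level under TSA, above siCONT with TSA, which was above the mock arrays. With median scaling the EPAS1 change was 0.64, under the 2-fold minimum. EGLN1 (PHD2) and EGLN3 (PHD3), the prolyl hydroxylases, are themselves HIF targets and fell with TSA in siCONT and in the combined treatment. EGLN1 fell by 1.05 ± 0.18 (0.00996; 0.168) and by 1.15 ± 0.18 (0.00560; 0.0517), with its spot on the first siCONT mock array left out as an outlier and that array dropped from its fit. Its level was 3.18 on the other siCONT mock array and between 1.97 and 2.38 on the other 6. EGLN3 fell by 1.20 ± 0.23 (0.00944; 0.198) and by 1.11 ± 0.23 (0.00939; 0.0968). RNA levels do not show the amount of HIF protein, which is set mainly by its breakdown.

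Of the HIF targets outside glycolysis, 8 of 9 were tested. Of these, 3 fell with TSA in siCONT, 5 with the combined treatment and 2 with TSA in depleted cells, against 8.22%, 11.1% and 9.01% of all tested probes. With depletion under mock and under TSA 0 fell, against 0.987% and 2.87%. BHLHE40 (DEC1), a transcriptional repressor induced by hypoxia, had the largest change of all members in the combined treatment. On the siCONT arrays BHLHE40 had levels of 1.68 and 1.81 with mock and −1.28 and −1.14 with TSA, and on the siUHRF1-1 and siUHRF1-2 arrays of 1.08 and −0.71 with mock and −3.07 and −1.78 with TSA. The siRNAs lay apart under both agents, and all depleted TSA arrays were below siCONT with TSA. BHLHE40 (chr3:5026260-5026319, hg19, plus strand) fell 18-fold with the combined treatment, by 4.17 ± 0.64 (adjusted p 0.00319; 0.0360 with siCONT as 1 sample). It fell 7.74-fold with TSA in siCONT (0.0144; 0.198) and 6.10-fold with TSA in depleted cells (0.0208; 0.0608), the latter with −4.15 for siUHRF1-1 and −1.07 for siUHRF1-2.

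ANKRD37, a small ankyrin protein and direct HIF1A target, fell with TSA in siCONT and in the combined treatment. Levels of ANKRD37 were 4.64 and 4.79 in siCONT with mock, 3.67 and 1.94 in depleted cells with mock, 2.01 and 1.95 in siCONT with TSA, and 2.22 and 3.2 in depleted cells with TSA. The siUHRF1-2 mock array was as low as siCONT with TSA, and siUHRF1-2 with TSA was higher than either. ANKRD37 (chr4:186321293-186321352, hg19, plus strand) changed by −2.73 ± 0.58 with TSA in siCONT (0.0134; 0.193) and by −2.01 ± 0.58 with the combined treatment (0.0308; 0.153). With depletion under mock it gave −1.91 ± 0.58 and did not pass (0.0901). NDRG1, a hypoxia-induced growth regulator, fell by 1.74 ± 0.31 with TSA in siCONT (0.00787; 0.170) and by 1.61 ± 0.31 in the combined treatment (0.00772; 0.0777). Its levels lay between 5.13 and 5.52 on the TSA arrays and between 5.84 and 6.98 on the mock arrays.

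VEGFA, the main angiogenic growth factor, fell in the combined treatment. VEGFA stood at 4.0 and 3.91 in siCONT with mock, at 2.65 and 2.60 in siCONT with TSA, at 3.29 and 1.82 in depleted cells with mock, and at 1.80 and 0.85 in depleted cells with TSA. Both siCONT mock arrays were above the other 6, and siUHRF1-2 was the lower of the siRNAs under both agents. VEGFA fell 6.19-fold there, by 2.63 ± 0.51 (adjusted p 0.00774; 0.0667 with siCONT as 1 sample), and its second probe gave −2.17 ± 0.57 (0.0233). KDM3A, a histone demethylase induced by HIF, fell by 1.34 ± 0.31 in the combined treatment (0.0137; 0.113) and by 1.12 ± 0.31 with TSA in depleted cells (0.0308; 0.0991), the latter call holding in 1 of the 8 fits that left out an array. ADM (adrenomedullin, a vasodilator peptide) and the collagen prolyl hydroxylase subunits P4HA1 and P4HA2 were called in no comparison. Their changes with TSA in siCONT were −0.62 ± 0.43, −0.88 ± 0.44 and −0.54 ± 0.17.

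CA9, the carbonic anhydrase most often used as a hypoxia marker, could not be tested. With mock, CA9 levels were −4.93 and −4.25 in siCONT and −0.63 and −5.46 in depleted cells, and with TSA −5.82 and −5.72 in siCONT and −5.51 and −5.67 in depleted cells. Its probe (chr9:35677817-35679204, hg19, plus strand) was well above background on the siUHRF1-1 mock array alone. The siUHRF1-2 mock array was not above background, so the siRNAs disagree.

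The core enzymes were then set beside the HIF targets. Their medians were −0.89 and −1.1 with TSA in siCONT, −0.46 and −0.68 with depletion under mock, −0.80 and −1.48 with the combined treatment, and −0.36 and −0.58 with TSA in depleted cells, against −0.11, −0.10, −0.14 and −0.04 over all tested probes. With depletion under TSA they were −0.07 and 0.12, against 0.00 over all tested probes, and the HIF median turned to −0.23 with median scaling. The interaction medians were 0.45 and 0.70, against 0.06. The shares that fell were 5 of 16 core enzymes and 3 of 8 HIF targets with TSA in siCONT, and 6 of 16 and 5 of 8 with the combined treatment. Of all tested probes 8.22% and 11.1% fell in these comparisons. HIF targets had the lower median in 4 of the 6 comparisons. The ranges overlapped in all of them, running from −2.54 to 0.41 for core enzymes and from −2.95 to −0.51 for HIF targets with TSA in siCONT. The difference between the lists was not tested.

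**Figure D2:**
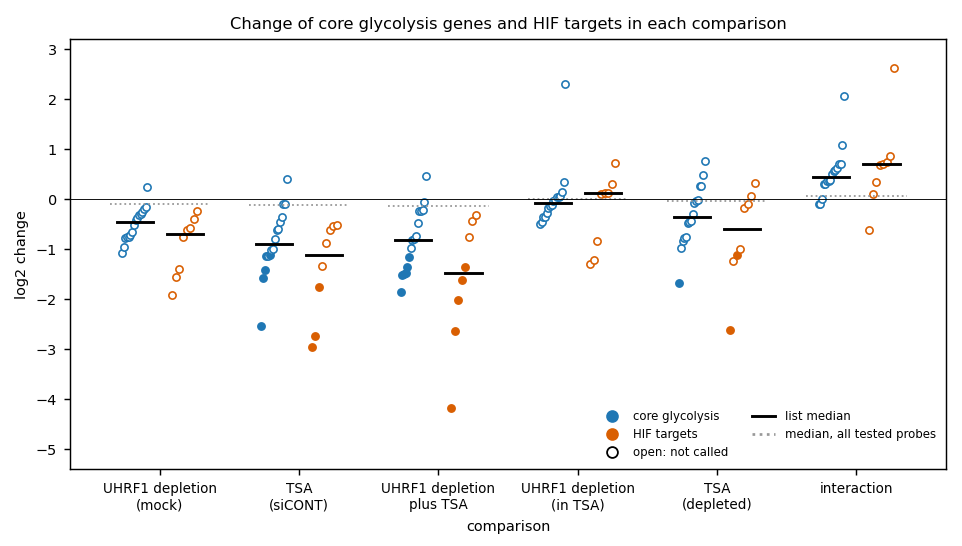
Log2 change of each tested core glycolysis gene and HIF target (points) in the 6 comparisons, with the median of each list as a thick line, the median over all tested probes as a dotted line, and called genes filled. In the combined treatment the HIF targets reach −4.17 (BHLHE40) and the core enzymes −1.85 (PFKL), and the medians are −1.48 and −0.80.

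The 2 siRNAs gave different levels of these genes under mock. Among members above background on all arrays, 11 of 36 (30.6%) differed by over 2-fold between siUHRF1-1 and siUHRF1-2, against 935 of 19900 probes (4.70%). Under TSA it was 3 of 36 (8.33%) against 616 of 19900 (3.1%), and between the siCONT arrays of either agent it was 0 of 36. The median member change under mock was −0.25 with siUHRF1-1 and −0.88 with siUHRF1-2, and 31 of 37 were lower with siUHRF1-2. Core enzymes had medians of −0.29 and −0.78, and HIF targets of −0.33 and −1.20. For P4HA1 siUHRF1-1 gave 0.16 and siUHRF1-2 −1.31. For VEGFA the values were −0.66 and −2.14, and for ALDOC 1.28 and −0.79. Each siRNA has 1 array per agent, so the siRNA and its culture cannot be told apart. UHRF1 itself changed by −1.65 with siUHRF1-1 and −2.01 with siUHRF1-2.

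**Figure D3:**
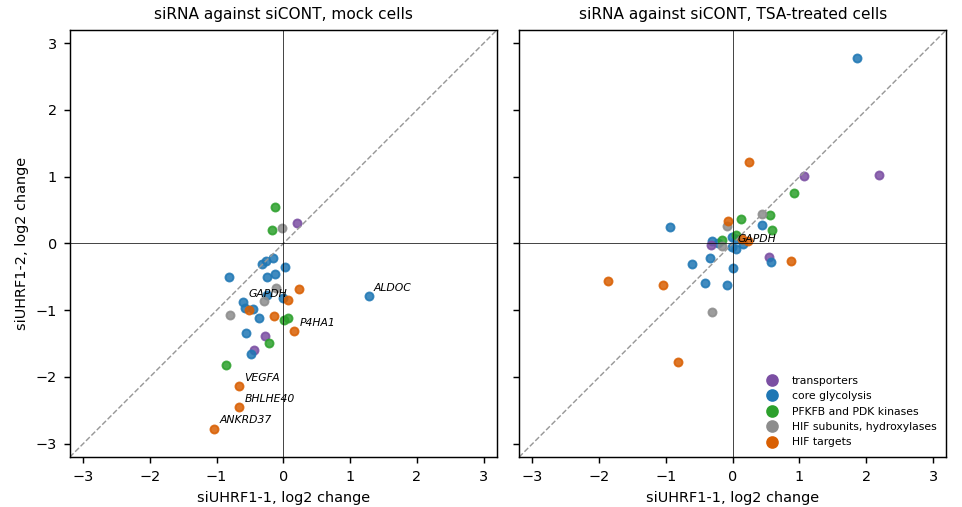
Log2 change against siCONT of the same agent with siUHRF1-1 (horizontal axis) and siUHRF1-2 (vertical axis) for each tested member, coloured by role, in mock (left) and TSA-treated cells (right), with a dashed line of equal change. Under mock 31 of 37 points lie below the line, and ANKRD37 reaches −2.77 with siUHRF1-2.

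TSA was measured in siCONT and in depleted cells on separate arrays, so these changes can be set side by side. Of 37 members tested in both, 24 were below 0 in both, and 32 had the lower value in siCONT. PFKL, PFKFB4 and BHLHE40 were called in both, 3 of the 15 called in siCONT and of the 5 called in depleted cells. Over all probes tested in both, 2337 were called in both, 56.7% of those called in siCONT and 54.6% of those called in depleted cells. Across the 37 genes, which are not independent replicates, Pearson's r was 0.742 and Spearman's rho 0.682, given as a description. ANKRD37 was among the genes far from equal change, with −2.73 in siCONT and −0.10 in depleted cells, where siUHRF1-1 gave −1.45 and siUHRF1-2 1.26. The interaction of no member was called in the 8-array fit, although 11 members, ANKRD37 among them, were called without the siUHRF1-1 mock array and SLC2A1, TPI1 and SLC16A3 with the replicate block within the siRNA arm.

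**Figure D4:**
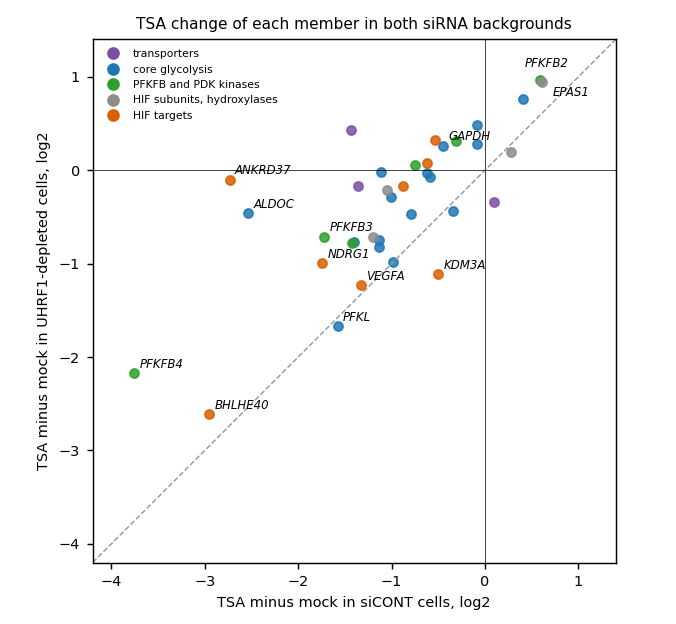
Log2 change with TSA in siCONT cells (horizontal axis) and in UHRF1-depleted cells (vertical axis) for the members tested in both, with the line of equal change. Points are coloured by role. Of 37 genes, 32 lie above the dashed line, and PFKL, PFKFB4 and BHLHE40 are called in both.

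GAPDH is both a core enzyme of glycolysis and, with ACTB, an endogenous control of the RT-PCR in this study. It was read by a probe with 10 spots (A_23_P13899, chr12:6646918-6646977, hg19, plus strand), whose sequence is shown because each reference value rests on it.
GAPDH probe: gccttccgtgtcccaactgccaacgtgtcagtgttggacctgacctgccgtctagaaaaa
On the siCONT arrays GAPDH had levels of 9.06 and 9.05 with mock and 8.62 and 8.6 with TSA, and on the siUHRF1-1 and siUHRF1-2 arrays of 8.45 and 8.17 with mock and 8.6 and 8.55 with TSA. Both siCONT mock arrays were above the other 6, and the depleted mock arrays were the lowest. GAPDH changed by −0.74 ± 0.13 with depletion under mock (adjusted p 0.0294; 0.530 with siCONT as 1 sample), −0.45 ± 0.13 with TSA in siCONT (0.0379; 0.472) and −0.48 ± 0.13 with the combined treatment (0.0257; 0.291). These are 1.67-fold, 1.36-fold and 1.39-fold lower, past the p threshold and under the 2-fold minimum, and their sign held under the other scalings. With depletion under TSA and with TSA in depleted cells the values were −0.03 (0.879) and 0.26 (0.159), and their sign turned under 1 scaling each.

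ACTB, the cytoplasmic actin, had smaller changes. Its brighter probe changed by −0.48 ± 0.12 with depletion under mock (adjusted p 0.0595), −0.20 ± 0.12 with TSA in siCONT (0.230) and −0.30 ± 0.12 with the combined treatment (0.0827). The ACTB probe with 10 spots gave −0.14, 0.21 and −0.07, so the ACTB probes differ in sign with TSA in siCONT. Set against ACTB in place of the array's percentile, GAPDH changed by −0.26, −0.25 and −0.18 in these comparisons. Set against GAPDH, the UHRF1 change was −1.09 with depletion under mock, −3.36 with the combined treatment and −2.84 with depletion under TSA, against −1.83, −3.84 and −2.87 on the percentile scale. With ACTB as the reference the UHRF1 values were −1.35, −3.54 and −2.77. The UHRF1 change in the interaction was −1.04 ± 0.31 on the percentile scale (limma, adjusted p 0.0990), −1.75 with GAPDH as the reference (0.0103) and −1.42 with ACTB (0.0307), so the choice of reference decided its call. Of 15 common reference genes, 2 fell in the combined treatment, the member PGK1 and HPRT1 (−1.47 ± 0.38, 0.0214), against 11.1% of all tested probes. Most of the 15, which include GAPDH and PGK1, had changes below 0. These were 13 with depletion under mock, 13 with TSA in siCONT and 14 with the combined treatment. Their medians were −0.27, −0.42 and −0.51, against −0.10, −0.11 and −0.14 over all tested probes. In the other comparisons 0 were called (limma gave 6, 9, 2, 3 and 2 at an unadjusted p under 0.05 for depletion under mock, TSA in siCONT, depletion under TSA, TSA in depleted cells and the interaction).

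**Figure D5:**
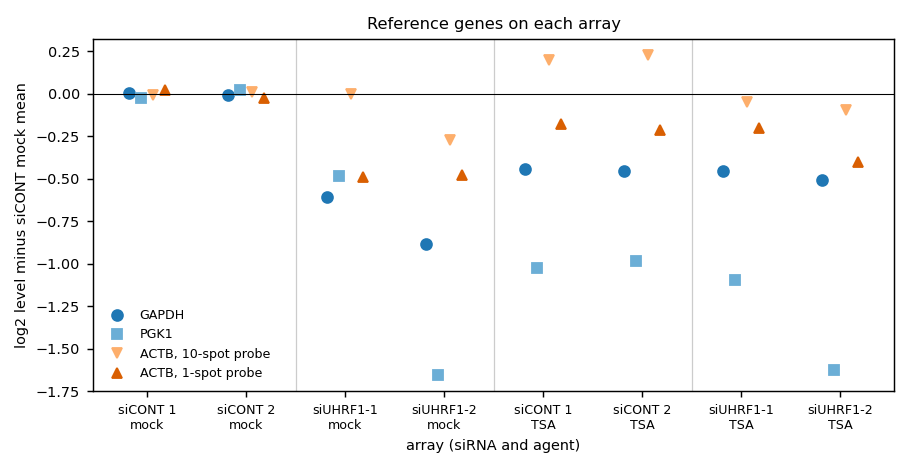
Levels of GAPDH, PGK1 and both ACTB probes on the 8 arrays (horizontal axis), as the log2 difference from the siCONT mock mean of the same probe (vertical axis), 1 point per array. GAPDH lies below 0 on all arrays but those of siCONT with mock, and the ACTB probe with 10 spots lies above 0 in siCONT with TSA, where its change is 0.21.

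For LDHA, the second probe (A_32_P44568) also fell, by 1.25 ± 0.38 with TSA in siCONT (adjusted p 0.0410) and by 1.64 ± 0.38 with the combined treatment (0.0139). The array file places it at chr9:14921817-14921876 (hg19, minus strand) and not at LDHA on chromosome 11, and RefSeq lists the LDHA pseudogene LDHAP4 on chromosome 9. The sequence is shown because it is the part of this result open to a copy of the gene, whose share in the signal was not tested.
LDHA second probe: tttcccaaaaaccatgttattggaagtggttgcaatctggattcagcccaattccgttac
The longest run that the LDHA probes share is 6 bases. Second probes of PGAM1 and PFKFB3 fell in the combined treatment as their brighter probes did.

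Promoter windows of RefSeq (GRCh38.p14, 250 bases before to 50 after a start) were searched for the hypoxia response core ACGTG or GCGTG on either strand. Windows of 34 of 39 members were searched, and none of SLC2A3, SLC16A1, PFKFB2, VEGFA and NDRG1. The chromosome of NDRG1 was left out of the member search but not of all windows. Whether NDRG1 has a window with the core was therefore not tested, and the shares of members and HIF targets do not cover it. The core was present in 42 of 64 member windows (65.6%), in 22 of 36 windows of core enzymes (61.1%) and in 7 of 8 windows of HIF targets (87.5%), against 48.4% of all 35116 windows of this length. Either form of the core contains CG, and member windows were richer in CG. The median count of CG was 26.5 in member windows, 27.0 in core enzymes and 22.5 in HIF targets, against 14.0 over all windows. The part of CG content in these shares was not tested, and some genes have several windows that overlap. Overlapping matches on both strands count once per window. A match is a description of the letters and says nothing of binding. The stretches below show the core, in capitals, in some of the members with a single window and a match before the start. GPI, ALDOC, EGLN1, EPAS1 and PGK1, which were called, also have such a match and are not shown. The single windows of PGAM1 and EGLN3, which fell, held 0 matches. That of SLC2A1, which fell too, held 1 match that did not lie wholly before the start. CA9 and GAPDH are shown although they were not called.
PFKFB4 (chr3:48556945-48556989, minus strand): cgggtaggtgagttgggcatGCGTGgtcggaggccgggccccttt
PFKL (chr21:44299869-44299913, plus strand): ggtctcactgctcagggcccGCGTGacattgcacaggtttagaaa
ENO1 (chr1:8878734-8878778, minus strand): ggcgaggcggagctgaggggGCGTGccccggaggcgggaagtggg
BHLHE40 (chr3:4979268-4979312, plus strand): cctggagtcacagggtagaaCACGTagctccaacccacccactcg
ANKRD37 (chr4:185396678-185396722, plus strand): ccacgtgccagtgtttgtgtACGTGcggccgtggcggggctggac
CA9 (chr9:35673890-35673927, plus strand): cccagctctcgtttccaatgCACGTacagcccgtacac
GAPDH (chr12:6535164-6535208, plus strand): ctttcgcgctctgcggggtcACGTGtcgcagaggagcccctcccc
In BHLHE40 and CA9 the match is on the opposite strand and reads CACGT as printed.

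Other genes of these pathways were examined in lists that are not members. Of 33 further glycolysis genes on the array 20 were tested. With TSA in siCONT 5 fell and 0 rose, against 8.22% and 10.4% of all tested probes. The lowest were PDK4 (−1.79 ± 0.40, adjusted p 0.0167), a kinase like PDK1, and GYS1 (−1.57 ± 0.15, 0.00107), the glycogen synthase. In the combined treatment 5 fell, against 11.1% of all tested probes, led by GBE1, the glycogen branching enzyme (−2.05 ± 0.23, 0.00109), and PDK4 (−1.5 ± 0.40, 0.0247). With TSA in depleted cells BPGM (1.6 ± 0.12, 0.000433) and PDP1 (1.47 ± 0.24, 0.00526) rose, and 3 fell, led by FBP1 (−2.04 ± 0.18, 0.000656) and GBE1 (−1.25 ± 0.23, 0.00784). Of all tested probes 11.7% rose and 9.01% fell there. FBP1, the phosphatase that reverses the phosphofructokinase step, rose with depletion under mock (1.5 ± 0.18, 0.0120), where 0 fell, against 3.13% and 0.987% of all tested probes. For depletion under TSA and for the interaction limma called 0 (6 and 5 at an unadjusted p under 0.05). Of all tested probes 5.39% and 2.83% were called higher there and 2.87% and 2.07% lower. BPGM makes 2,3-bisphosphoglycerate and PDP1 reverses the action of the PDK enzymes.

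Of the further hypoxia genes, 4 of 27 tested rose and 7 fell with TSA in siCONT, against 10.4% and 8.22% of all tested probes, with TMEM45A (1.71 ± 0.53, 0.0456) and CITED2 (1.44 ± 0.31, 0.0135) the highest and ANGPTL4 (−4.85 ± 0.63, 0.00275) and FAM162A (−2.36 ± 0.15, 0.000405) the lowest. CITED2 competes with HIF for its coactivator, and ANGPTL4 is a secreted regulator of lipid use. In the combined treatment 5 of 29 rose and 6 fell, against 14.5% and 11.1% of all tested probes, with TMEM45A (2.93 ± 0.53, 0.00601) and IGFBP3 (2.67 ± 0.22, 0.000401) the highest and ANGPTL4 (−4.64 ± 0.63, 0.00207) and DDIT4 (−3.24 ± 0.73, 0.0134) the lowest. With TSA in depleted cells 4 of 28 rose, IGFBP3 (2.54 ± 0.22, 0.000603) among them, and 3 fell, against 11.7% and 9.01% of all tested probes, ANGPTL4 (−2.50 ± 0.63, 0.0231) and FAM162A (−1.61 ± 0.15, 0.000735) the most. The probe of LOX, a lysyl oxidase, was well above background in the depleted TSA group and in no other, and LOX was at least 1.83-fold higher there than in depleted mock cells (limma, adjusted p 0.00355). LOX is also counted among the rises of the combined treatment. It was at least 1.59-fold higher there than in siCONT with mock (limma, adjusted p 0.00923). LOX entered both tests only through the depleted TSA group, so its p-values are no support beyond the bounds. Both bounds are under the 2-fold minimum. With depletion under TSA CA12 (1.33 ± 0.33, 0.0420) and IGFBP3 (1.28 ± 0.22, 0.0162) rose. HIF1AN (−1.0 ± 0.17, 0.0163), the asparagine hydroxylase that restrains HIF, fell there. CA12 was well above background on both depleted TSA arrays but on only 1 siCONT array of each agent. It entered this test and that of the combined treatment only through the depleted TSA group, so its p-values are no support. Under mock depletion lowered RORA (−1.24 ± 0.12, 0.00829) and called 0 higher. Of the 10 colon epithelial markers, all tested, 0 rose and 3 fell with TSA in siCONT, against 10.4% and 8.22% of all tested probes. The median change of the 10 was −0.07. Those that fell were GPA33 (−5.49 ± 0.35, 0.000414), LGALS4 (−3.57 ± 0.12, 0.000132) and VIL1 (−1.42 ± 0.37, 0.0267). With depletion under mock 1 of the 10 rose, LGALS4 (3.1 ± 0.12, 0.00198), and 0 fell, against 3.13% and 0.987% of all tested probes. The part of these marker changes in the results was not tested. With siCONT as 1 sample, the numbers of further genes called by limma were 0 and 1 with TSA in siCONT, 2 and 6 in the combined treatment and 5 and 5 with TSA in depleted cells, for glycolysis and hypoxia in turn, and 0 in the other comparisons (2 and 2 at an unadjusted p under 0.05 with depletion under mock).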

How the data were processed

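RNA of DLD1 cells was measured on 8 single-colour Agilent arrays. The deposited files hold the linear intensity of each spot, per the file headers background-subtracted by the authors' Agilent Feature Extraction 10.7.3.1 and not scaled between arrays. Its version is 10.7 in the submitters' processing notes. The study's methods name GeneSpring GX, and its normalization is not given in the sources used here. The deposited series matrix held 0.995 to 1.00 times the same intensity.

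Control spots and outlier spots were left out and spots of a probe averaged. Of 50599 probes, 24591 entered lmFit and eBayes of limma 3.58.1 (R 4.3.3; 4 group means, 4 residual degrees of freedom, prior 2.17, two-sided). The fit with siCONT as 1 sample had 6 samples, 2 residual degrees of freedom and a prior of 3.26. A probe was tested if well above background on both arrays of a group compared. The Benjamini-Hochberg adjustment ran over all tested probes. A gene with several probes, 15 of 39, was given by its brightest. The number of arrays limits the precision. The fit was tested on simulated data.

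Genes and lists were chosen with earlier results of these data known. Every gene of the set is named. Of other lists, the 2 highest and 2 lowest calls in a comparison could be named. Alternatives changed the scaling, background correction, filter, probe rule, test, replicate block and arrays. Promoter windows and gene positions came from RefSeq.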

Additional observations from a re-analysis of the deposited data

Results flagged for a closer look

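The interaction of UHRF1 depletion and TSA, that is, a difference between the UHRF1 effects under the 2 agents, was called for 4 genes of the lists examined beside the set and for no member of it. RORA, a nuclear receptor of the wider hypoxia list, had an interaction of 1.16 ± 0.17 (limma, adjusted p 0.0249; 0.497 with siCONT as 1 sample), positive with both siRNAs. LGALS4, a colon epithelial galectin, had −1.5 ± 0.18 (0.0193; 0.417). The markers of other cells gave −1.76 ± 0.35 for VWF (0.0441; 0.470), which was not well above background in siCONT with mock, so that its value is no bound, and 1.96 ± 0.31 for DES (0.0285; 0.420). With siCONT as 1 sample limma called none of these 4.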

How the results depend on the processing

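Each call of a single gene was set against each alternative, including the fits that left out an array. Of these pairs of a call and an alternative, 631 kept the direction and the side of the threshold, 178 lost the call, and none reversed. Pairs of the same call are not independent. With siCONT averaged to 1 sample, the number of members called went from 1 to 0 for depletion under mock, from 15 to 1 for TSA in siCONT, from 18 to 5 for the combined treatment and from 5 to 3 for TSA in depleted cells. For depletion under mock it was also 0 with the percentile over probes detected on all arrays, median scaling, quantile normalization, no filter on dim probes, and the methods' t-test with or without adjustment. Under the methods' t-test it was 2 for depletion under TSA and 3 for TSA in depleted cells, and after adjustment 8 for the combined treatment and 0 for TSA in depleted cells. Depletion under TSA gave 1 with the percentile over probes detected on all arrays and 1 when every array had to be above background. Median scaling gave 12 for TSA in depleted cells, and normexp 1 for the interaction (SLC16A3).

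The median change of core glycolysis with TSA in siCONT was −0.76 with the percentile over probes detected on all arrays, −0.93 with median scaling, −0.56 with quantile normalization, −0.81 with normexp and −0.86 with the mean over a gene's probes. That of HIF targets was −0.97, −1.15, −0.97, −0.97 and −0.92 in the same order, and −1.18 with no filter. For the combined treatment core glycolysis was at −0.56 (percentile), −1.20 (median scaling) and −0.52 (quantile), and HIF targets at −1.88 (median scaling) and −1.14 (normexp). For depletion under TSA core glycolysis was at 0.040 (percentile), −0.42 (median scaling), −0.15 (quantile) and −0.10 (normexp), and HIF targets at 0.23 (percentile) and −0.23 (median scaling). Median scaling gave −0.75 for core glycolysis with TSA in depleted cells and 0.11 for the interaction. The cause was not tested.

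With each array left out in turn, members called ranged from 0 to 14 for depletion under mock, 4 to 17 for TSA in siCONT, 10 to 19 for the combined treatment, 0 to 3 for depletion under TSA, 3 to 15 for TSA in depleted cells and 0 to 11 for the interaction. In that order the core glycolysis medians ranged from −0.78 to −0.29, −0.90 to −0.87, −0.81 to −0.71, −0.075 to −0.0063, −0.52 to 0.14 and 0.31 to 0.74. The HIF target medians ranged from −1.20 to −0.33, −1.13 to −1.08, −1.68 to −1.27, −0.11 to 0.14, −1.22 to 0.02 and 0.10 to 1.19. A left-out array leaves 1 array in its group, assumed to vary like the others.

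Only the depleted groups share more than a number, the siRNA. Deviations of same-numbered arrays correlated at 0.337 between the depleted groups and at −0.056 to 0.074 between other pairs of groups. With the number as a replicate block, members called were 0, 17, 19, 0, 5 and 0 in the order above. With the replicate block within the siRNA arm they were 4, 18, 19, 3, 6 and 3, the last being SLC2A1, TPI1 and SLC16A3. The arrays measured TSA and slide row together, and probes not well above background, such as those of SLC2A3 and CA9 on most arrays, limit what can be tested.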
